A study of Mus musculus with 6 samples.

Results

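Nnt and 9 genes around it near the distal end of mouse chromosome 13 were examined in cultured primary hepatocytes. The members were chosen from the differences between transgenic and wild-type arrays in these same data and from gene position, so every value of the members below is a description and carries no test. All 10 genes were found, on 16 probe sets, among 12393 genes measured. From proximal to distal they are Isl1, Parp8, Emb, Mrps30, Fgf10, Nnt, Paip1, 4833420G17Rik, 3110070M22Rik and Tmem267. The transgenic hepatocytes (TG, 3 arrays) came from Alb/AEG-1 mice, which overexpress AEG-1, the product of Mtdh, specifically in hepatocytes. The wild-type hepatocytes (WT, 3 arrays) came from mice without the transgene. Mice of both genotypes are labelled as mixed strain B6/CBA, and all cells were untreated and collected 24 h after plating on collagen. The arrays of a genotype are labelled as biological replicates. Whether each came from a separate mouse is not stated, nor are age, sex and the B6 substrain, so the p-values measure the spread between these arrays.

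Nnt encodes nicotinamide nucleotide transhydrogenase, an enzyme of the inner mitochondrial membrane. It uses the proton gradient to pass electrons from NADH to NADP+, which supplies NADPH to the glutathione and thioredoxin systems of the matrix. The C57BL/6J substrain is known for a deletion of several exons of Nnt, which other mouse strains do not share, and the gene is therefore a common strain difference in metabolic studies. The neighbours have unrelated roles, from a growth factor to proteins of translation.

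Expression is given as log2 values per probe set, a set of short probes near the 3' end of a transcript, and a difference is the TG mean minus the WT mean. A gene is represented by its brightest probe set and is called when its adjusted p in a limma fit over all genes is under 0.05. Among the members 5 of 10 were called, 1 higher and 4 lower. Over all genes 15.9% were called, 6.83% higher and 9.05% lower, and nothing is read from the members' count because the same contrast chose them. The called members were Nnt, Paip1, 4833420G17Rik, 3110070M22Rik and Tmem267, which are adjacent in the gene order. The other 5, Isl1 to Fgf10, were not called, so these data do not show a change in every listed neighbour.

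Promoter windows were available from RefSeq (GRCm38.p6) for 9 of the 10 members, all but Nnt. They make 11 windows of 300 bases, each with 250 bases before and 50 after a transcript start. Those of the 3 most distal members are shown because these genes were all lower in TG cells and because 2 of them, 3110070M22Rik and Tmem267, start close together on opposite strands. Capitals mark the GC box, the letters GGGCGG or CCGCCC. The windows are chr13:119462509-119462808 on the plus strand for 4833420G17Rik, chr13:119488335-119488634 on the minus strand for 3110070M22Rik and chr13:119488223-119488522 on the plus strand for the second of 2 starts of Tmem267.
4833420G17Rik: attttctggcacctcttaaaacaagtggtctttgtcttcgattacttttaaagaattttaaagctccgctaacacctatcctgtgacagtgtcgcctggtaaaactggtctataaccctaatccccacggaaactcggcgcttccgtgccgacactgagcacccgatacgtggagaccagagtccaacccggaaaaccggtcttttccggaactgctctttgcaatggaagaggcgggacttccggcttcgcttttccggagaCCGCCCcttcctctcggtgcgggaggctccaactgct
3110070M22Rik: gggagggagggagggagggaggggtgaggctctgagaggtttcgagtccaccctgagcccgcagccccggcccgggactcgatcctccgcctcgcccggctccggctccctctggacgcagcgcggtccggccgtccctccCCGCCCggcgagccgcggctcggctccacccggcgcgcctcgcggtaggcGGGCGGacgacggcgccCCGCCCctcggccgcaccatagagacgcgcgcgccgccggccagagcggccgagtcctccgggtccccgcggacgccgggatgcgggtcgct
Tmem267: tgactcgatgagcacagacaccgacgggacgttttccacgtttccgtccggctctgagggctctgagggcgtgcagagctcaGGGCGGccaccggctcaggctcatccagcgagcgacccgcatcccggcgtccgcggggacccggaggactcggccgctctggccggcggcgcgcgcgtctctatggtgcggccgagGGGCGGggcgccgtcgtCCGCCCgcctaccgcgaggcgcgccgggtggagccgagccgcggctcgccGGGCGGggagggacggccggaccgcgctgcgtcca

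The last of these windows share 188 bases, read from opposite strands, so their sequences are in part the reverse complement of each other. In the gene annotation the long noncoding RNA 3110070M22Rik also overlaps Tmem267, and the extent of that overlap was not measured here. The 3110070M22Rik window and the second Tmem267 window hold 48 and 50 CG dinucleotides, in part the same ones. The 4833420G17Rik window holds 20 and the first Tmem267 window 22, against a median of 7 over all 32851 windows. High counts are not particular to this pair, since the Paip1 windows hold 38 and 49 and those of Isl1 and Parp8 hold 37 each. The windows of Emb, Mrps30 and Fgf10 hold 14, 16 and 10. Both strands were searched for 4 motifs, and matches of different motifs were allowed to overlap. The GC box was present in 9 of 11 member windows, belonging to 7 of 9 genes, and in 35.7% of all windows. The share of G and C bases ran from 49.3% to 81.0% in member windows, with a median of 52.7% over all windows. Motif counts were not adjusted for it, so no enrichment is read from them. The CCAAT box (CCAAT or ATTGG) was present in windows of 3 of 9 genes and in 37.4% of all windows. The letters CCGGAAG or CTTCCGG, which ETS factors can bind, were found in the window of 1 gene, 4833420G17Rik, and in 8.86% of all windows. TATAAA or TTTATA was in 0 of 11 member windows and in 13.6% of all windows.

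Nnt was the called member with the higher level in TG cells. Its brightest probe set (1416105_at) read 9.70, 9.73 and 9.56 in TG arrays and 8.81, 9.08 and 8.87 in WT arrays. The groups did not overlap, and the lowest TG array stood 0.48 above the highest WT array. The means were 9.66 ± 0.09 in TG and 8.92 ± 0.14 in WT hepatocytes (SD, n = 3 each), a difference of 0.74 (SE 0.08) or 1.67-fold. The other probe set of Nnt (1456573_x_at) read 9.63, 9.59 and 9.63 in TG arrays and 8.64, 9.15 and 8.92 in WT arrays. That is a difference of 0.71 (SE 0.12), again without overlap, on a probe set of the kind that matches several transcripts. On both probe sets the second WT array was the highest of its genotype. Where these probes lie relative to the exons missing in C57BL/6J was not analysed here. A signal of 8.64 or more in each WT array therefore says nothing on whether the transcript was complete.

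Paip1, the next gene distally, encodes a partner of the poly(A)-binding protein that stimulates translation initiation. Its probe sets moved in opposite directions. The brightest (1451740_at) read 7.79, 7.78 and 7.71 in TG arrays and 8.11, 8.06 and 8.22 in WT arrays. The TG arrays were all lower, with a difference of -0.37 (SE 0.06). The other (1425521_at) read 7.44, 7.48 and 7.49 in TG arrays and 6.83, 6.94 and 7.22 in WT arrays. There the TG arrays were all higher, with a difference of 0.47 (SE 0.10). The first probe set minus the second gave 0.29 ± 0.07 in TG and 1.13 ± 0.14 in WT cells (SD, n = 3 each), so the relation between them differed by genotype by -0.84. The mean of both probe sets differed by 0.052 and was not called, so no direction is given for Paip1 as a gene.

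4833420G17Rik, a protein-coding gene known by a clone-based symbol, was lower in TG cells on all 3 of its probe sets. The brightest (1419637_s_at) read 6.61, 6.65 and 6.61 in TG arrays and 7.37, 7.32 and 7.33 in WT arrays. The spread within each genotype, an SD of 0.02 in TG and 0.03 in WT, was small against the difference of -0.71 (SE 0.05), a 1.64-fold lower level. The others differed by -0.90 (1419635_at, SE 0.12) and -1.04 (1419636_at, SE 0.06). Unlike the brightest, they are not of the kind that matches several transcripts. Their values ran from 4.16 to 4.67 in TG and from 5.18 to 5.48 in WT arrays. No array overlapped between the genotypes on any of these probe sets.

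3110070M22Rik, a long noncoding RNA, read 3.59, 3.53 and 3.67 in TG arrays and 4.32, 4.08 and 4.03 in WT arrays. All TG arrays were below all WT arrays, and the difference was -0.55 (SE 0.09). These values lie well under the array medians, which ran from 5.61 to 5.64. No detection calls were used here.

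Tmem267, which encodes a predicted transmembrane protein, had the largest difference among the members. It read 3.75, 4.03 and 3.81 in TG arrays and 5.18, 5.27 and 5.22 in WT arrays. The groups were separated by 1.15 between the highest TG and the lowest WT array. The means were 3.86 ± 0.15 in TG and 5.22 ± 0.05 in WT hepatocytes (SD, n = 3 each), a difference of -1.36 (SE 0.08), or 2.56-fold lower. All 6 values were under the array medians, and this gene has 1 probe set.

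**Figure D1:**
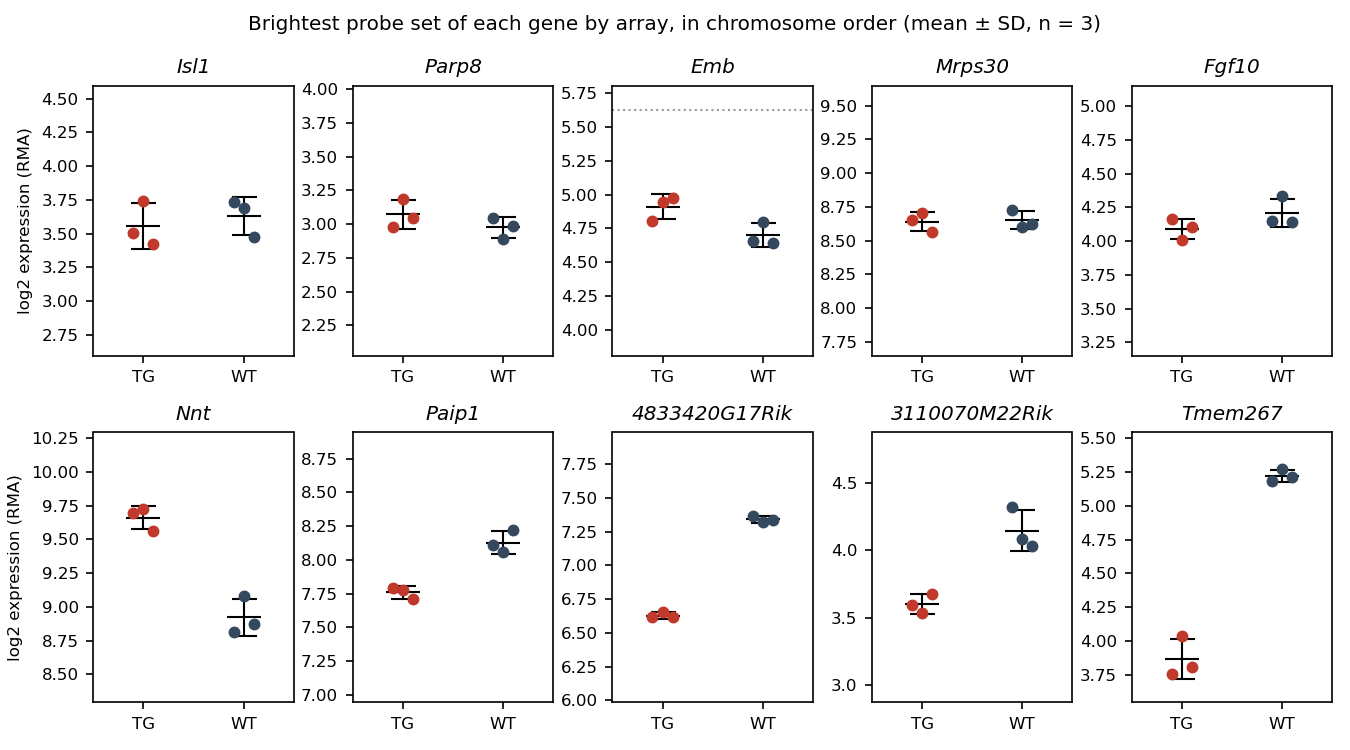
Log2 expression of the brightest probe set of each of the 10 genes, in chromosome order, with 1 point per array (TG left, WT right) and black bars for mean ± SD (n = 3). Every vertical axis spans the same range of log2 units, and the dotted line is the median of all values (5.63). The genotypes are apart for Nnt (TG higher) and for the 4 genes distal to it (TG lower), while Isl1, Parp8, Mrps30 and Fgf10 overlap and Emb is separated by 0.0070.

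The 5 proximal members gave small differences. Mrps30, a protein of the mitochondrial ribosome, was the only one of them above the array median. It read 8.65, 8.70 and 8.57 in TG arrays and 8.72, 8.60 and 8.63 in WT arrays, a difference of -0.01 (SE 0.06). Emb encodes embigin, a membrane glycoprotein that accompanies monocarboxylate transporters. Its brightest probe set read 4.81, 4.95 and 4.98 in TG arrays and 4.66, 4.80 and 4.64 in WT arrays, a difference of 0.21 (SE 0.07). The groups were barely apart, and the other Emb probe set differed by -0.03 (SE 0.09) with overlapping arrays.

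Isl1, Parp8 and Fgf10 were under the array medians in all 6 arrays. Isl1 is a LIM-homeodomain transcription factor of motor neurons and pancreatic islets, and its probe sets differed by -0.08 (SE 0.10) and 0.06 (SE 0.10). Parp8 belongs to the ADP-ribosyltransferase family, and it differed by 0.10 (SE 0.07). Fgf10 is a growth factor that mesenchyme secretes during lung and limb development, and it differed by -0.12 (SE 0.07). The arrays of the genotypes overlapped for all 3 genes. At the brightest probe set, groups did not overlap for 6 of 10 members, the called ones and Emb, and for 34.5% of all genes.

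Tested as separate features among all probe sets, 9 of the 16 probe sets of the members were called, 3 higher and 6 lower, where 12.0% of all probe sets were called. The higher ones were both of Nnt and 1 of Paip1. The lower ones were the other of Paip1, the 3 of 4833420G17Rik and those of 3110070M22Rik and Tmem267.

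**Figure D2:**
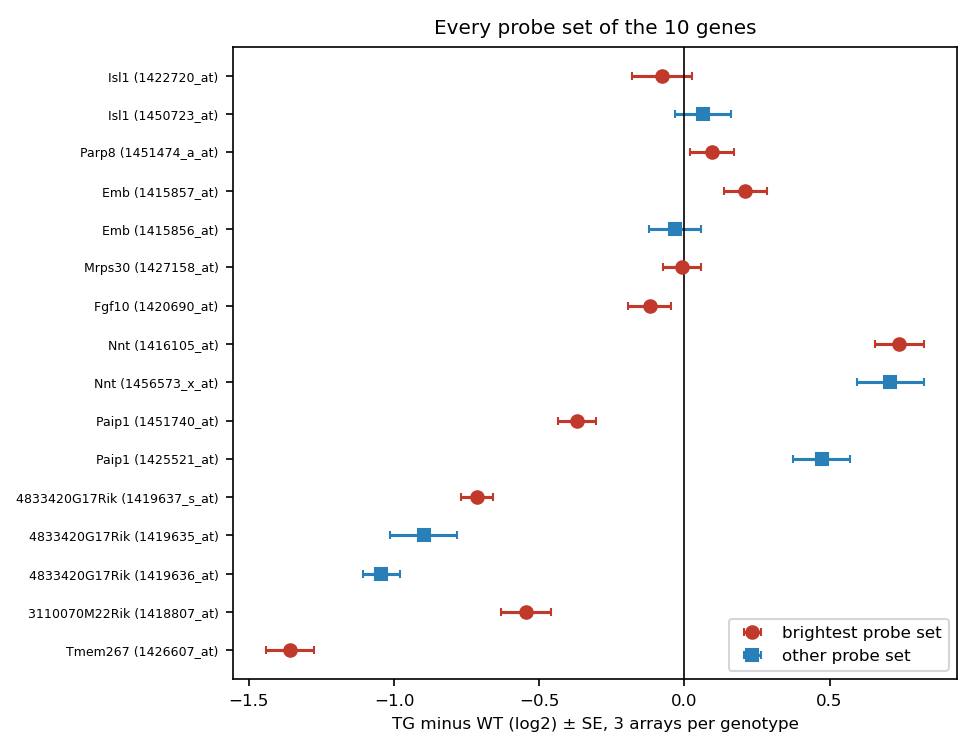
Difference between TG and WT (log2) with its SE for every probe set of the 10 genes, proximal at the top and distal at the bottom. Circles are the brightest probe set of a gene and squares are the others. The probe sets of Nnt and of 4833420G17Rik agree in sign within each gene, and those of Paip1 lie on opposite sides of 0.

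The chromosome around the members was then read gene by gene, by the gene order of the RefSeq table (GRCm38.p6). Gene starts in that table set the order only. Distances in bases between genes were not used here, since the arrays carry no build. From Isl1 to the distal end 20 genes were measured, 10 of them members, and 8 were called, 2 higher and 6 lower. On the same chromosome proximal to Isl1, 73 of 439 genes were called (16.6%). The same contrast chose the members, and the segments below are divided where their calls begin and end. These counts, and that from Isl1 to the distal end, are therefore a description. The segment from Isl1 to Fgf10 had 0 of 5 called at an adjusted p under 0.05, and the segment from Nnt to Tmem267 had 5 of 5. The segment distal to Tmem267 had 3 of 10, and the 5 genes just proximal to Isl1 had 2 of 5.

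Past Tmem267 came Ccl28, a mucosal chemokine gene, which differed by 0.13 (SE 0.08) with overlapping arrays. Next were Hmgcs1, the cytosolic HMG-CoA synthase of cholesterol synthesis, and the zinc finger gene Zfp131, both lower in TG cells. Hmgcs1 read 11.72, 11.69 and 11.65 in TG arrays and 12.35, 12.50 and 12.40 in WT arrays, a difference of -0.73 (SE 0.06), and all 4 of its probe sets were called lower. Zfp131 read 6.91, 6.95 and 7.00 in TG arrays and 7.46, 7.27 and 7.30 in WT arrays, a difference of -0.40 (SE 0.07). The 7 genes beyond it, AF067063, D13Ertd608e, Tcstv1, Gm20767, AF067061, BC147527 and Tcstv3, differed by -0.11 to 0.23, and all were under the array medians. AF067061 was called higher, at 0.23 (SE 0.07), on a probe set that matches several transcripts. That call was lost without any 1 of the 6 arrays. It was kept in only 1 of the 12 alternatives that hold this gene, with adjusted p up to 0.142.

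On the proximal side of Isl1, the nearest measured genes were Ndufs4, Fst, Mocs2, Itga2 and Pelo. Fst, which encodes the activin-binding protein follistatin, was higher, at 9.62 ± 0.03 in TG against 9.09 ± 0.03 in WT cells (SD, n = 3 each), a difference of 0.54 (SE 0.05). Mocs2, a gene of molybdenum cofactor synthesis, differed by -0.21 (SE 0.05) and was called. The Mocs2 call was lost without any 1 of the 6 arrays, and the difference was 0.011 without probe sets of several transcripts. Ndufs4, Itga2 and Pelo were not called, with differences of -0.12, 0.06 and 0.06.

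Nnt to Tmem267 was a run of 5 adjacent measured genes that were all called. Along the autosomes and the X chromosome there were 3 runs of at least 5, and the other 2 lie on chromosome 19. Those hold 6 genes, with a median absolute difference of 0.40, and 5 genes, with 1.19. For the run from Nnt to Tmem267 the median was 0.71. The table lists 5 protein-coding or long noncoding genes from Nnt to Tmem267, and all 5 were measured. The run was found in the values that chose the members, so its length is a description. It also counts Paip1 at its brightest probe set, while the mean of the Paip1 probe sets was not called. By chromosome, the share of genes called ran from 10.2% on the X chromosome to 21.2% on chromosome 19, and was 17.6% on chromosome 13.

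**Figure D3:**
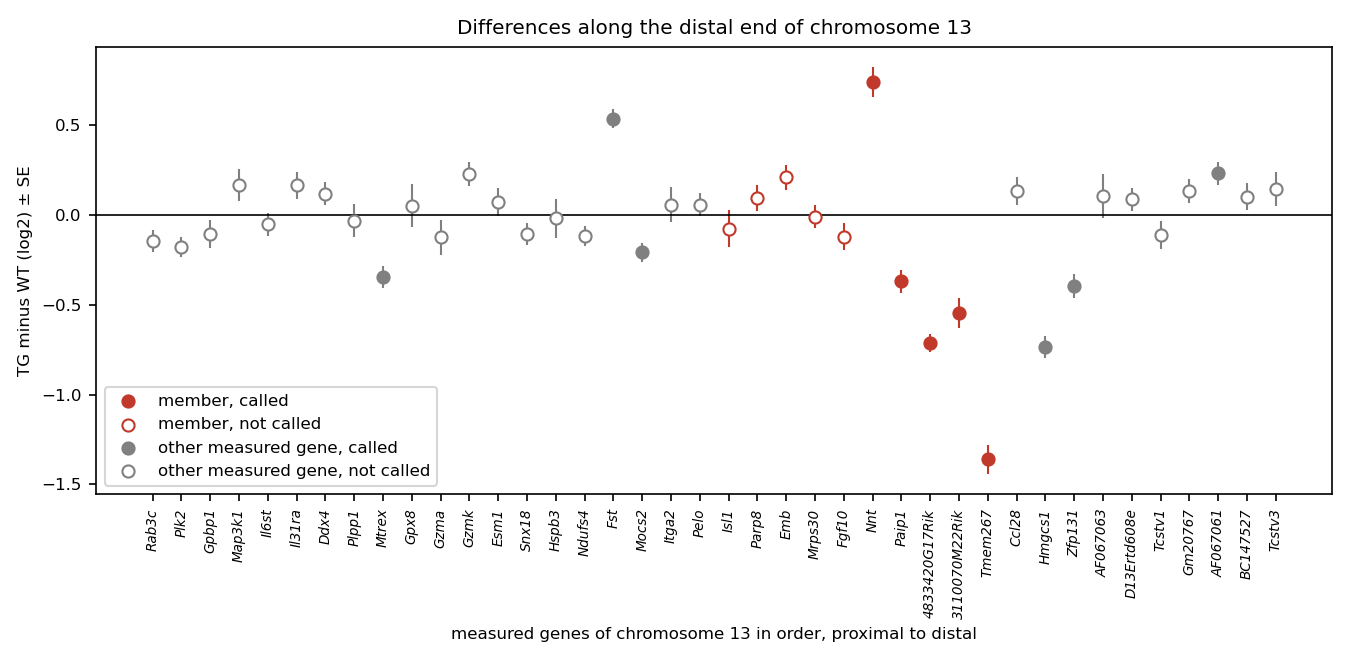
Difference between TG and WT (log2) with its SE at the brightest probe set for the measured genes of chromosome 13 from 20 genes proximal to Isl1 to the distal end, evenly spaced in gene order. Red points are the members and grey points other genes, and filled points were called. The called members are Nnt, at 0.74, and the 4 genes after it, from -0.37 to -1.36, followed after Ccl28 by Hmgcs1 and Zfp131.

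Genes other than the members were ranked by how close their profile over the 6 arrays lay to that of Nnt. Closeness was the root mean square distance between profiles centred on their own means, in log2 units. The closest were Ifi47 at 0.069, Cdh1 at 0.073, Pdlim1 at 0.073, Tlr2 at 0.073 and Irgm2 at 0.076. They lie on chromosomes 11, 8, 19, 3 and 11, and none of these 5 is on chromosome 13. Their differences ran from 0.67 to 0.75, beside 0.74 for Nnt. Over 2 groups of 3 arrays this distance depends largely on that difference, so the closeness is a description. The arrays form 2 genotypes, so no correlation over them is given.

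Genes that act with Nnt in the mitochondrial supply and use of NADPH were read as a list without Nnt. Of 14 measured genes 2 rose, 1 fell and 11 were not called, and the list median was -0.02, against 0.01 over all genes and 15.9% called. Mthfd2, the mitochondrial folate enzyme that links formate and NAD(P)H production, rose to 7.14 ± 0.17 in TG against 6.65 ± 0.06 in WT cells (SD, n = 3 each). The difference was 0.49 (SE 0.09, limma adjusted p = 0.00865). Fdx1, the ferredoxin that carries electrons from NADPH to mitochondrial cytochromes P450, rose by 0.32 (SE 0.05, limma adjusted p = 0.00565). Gpx4, the phospholipid hydroperoxide peroxidase, fell by 0.23 (SE 0.05, limma adjusted p = 0.0260), a call lost without TG replicate 1, TG replicate 2 or any WT array, with adjusted p up to 0.0869. The mitochondrial peroxidase Prdx3 differed by -0.17 (limma adjusted p = 0.0674).

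Families and partners of the neighbours were read in the same way. Of 11 genes of the PARP family 6 rose and 1 fell, with a median of 0.24, where 6.83% of all genes were higher and 9.05% lower. Parp14 rose by 0.74 (SE 0.09), Parp9 by 0.65 (SE 0.05) and Parp12 by 0.39 (SE 0.07), and all 3 are known as interferon-induced genes. Their limma adjusted p-values were 0.00145, 0.000152 and 0.00606. Parp16, a PARP of the endoplasmic reticulum, fell by 0.84 (SE 0.11, limma adjusted p = 0.00199), at levels under the array medians. Tnks2, Parp3 and Tiparp were the other risen genes. The Parp3 call was lost without TG replicate 1 (adjusted p = 0.0541), the Tiparp call without TG replicate 1, TG replicate 3 or WT replicate 3 (adjusted p up to 0.0673), and Tnks2 gave 0.03 with the mean of its probe sets.

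In FGF signalling 3 of 14 genes fell and 0 rose, with a median of 0.06, and with the mean of probe sets 2 fell and 1 rose. The share called was 21.4%, against 15.9% over all genes, and 7 of the 14 were under the array medians throughout. Dusp6, a phosphatase that FGF and ERK signalling induces, was at 9.73 ± 0.04 in TG against 10.82 ± 0.04 in WT cells (SD, n = 3 each), a difference of -1.09 (SE 0.05, limma adjusted p = 1.30e-05). Fgfr3, an FGF receptor, fell by 0.51 (SE 0.08, limma adjusted p = 0.00522), or by 0.22 with the mean of its probe sets. Fgfr1 fell by 0.29 (limma adjusted p = 0.0496), a call lost without TG replicate 1, TG replicate 3 or any WT array (adjusted p up to 0.134). Beside these, Fgf10 itself was low on every array and not called.

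A list of 6 genes around embigin holds relatives such as basigin itself, and monocarboxylate transporters. In it 1 rose and 1 fell, or 33.3% called, against 15.9% over all genes. The lactate and pyruvate transporter Slc16a7 fell by 0.37 (SE 0.07, limma adjusted p = 0.0103). Slc16a1 rose by 0.21 (limma adjusted p = 0.0446), a call lost without any 1 of the 6 arrays (adjusted p up to 0.132). In the list of poly(A)-binding proteins and eIF4F, which surrounds Paip1, 1 of 11 genes fell (9.09% called, against 15.9% over all genes), Paip2, by 0.22 (limma adjusted p = 0.0313). That call too was lost without any 1 array (adjusted p up to 0.10), while the list gave 4 calls with the filter on dim genes and 4 with a variance trend. In the small subunit of the mitochondrial ribosome 1 of 26 genes rose (3.85% called), Mrps26, by 0.25 (limma adjusted p = 0.0438), which was lost without any 1 TG array and without WT replicate 1 or 2 (adjusted p up to 0.139). Of 6 partners of Isl1, 0 were called by limma, and 1 had an unadjusted p under 0.05.

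**Figure D4:**
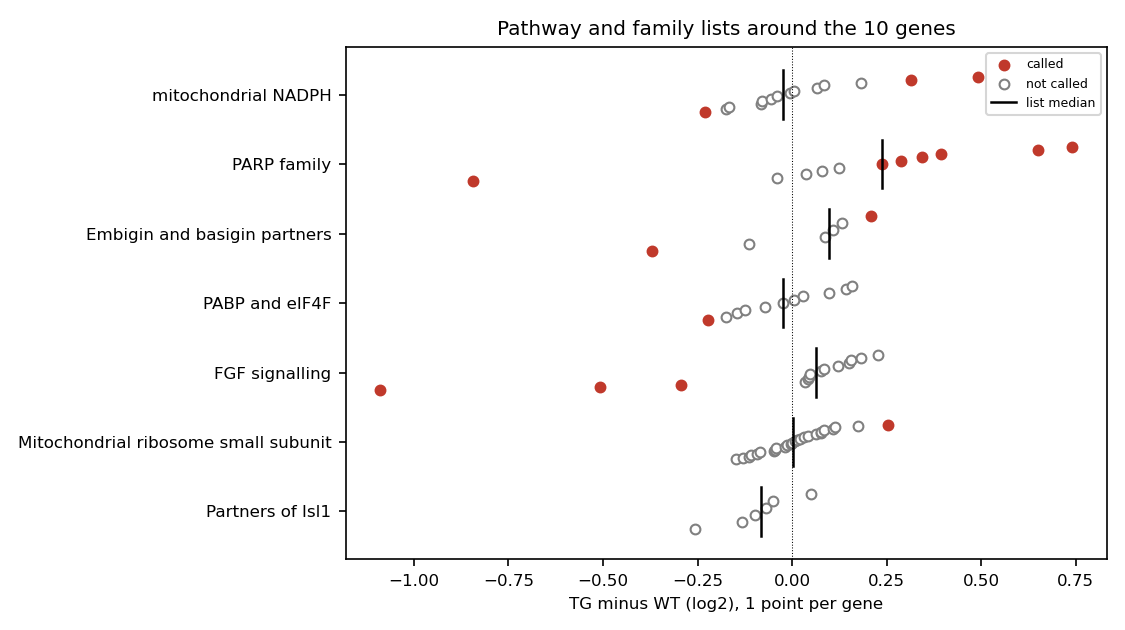
Difference between TG and WT (log2) for each measured gene of the pathway and family lists, at its brightest probe set. Filled red points were called, open points were not, and vertical bars are list medians. The PARP family has the highest list median, at 0.24, and Dusp6 the lowest value, at -1.09.

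The arrays as a whole had Pearson correlations across genes of 0.9976 to 0.9982 within a genotype and 0.9933 to 0.9940 between genotypes. Mtdh, the overexpressed gene, read 10.72, 10.40 and 10.81 in TG arrays and 8.75, 8.78 and 8.64 in WT arrays at its brightest probe set, a difference of 1.92 (SE 0.105). That was the 1 of its 6 probe sets called higher, and none of the others was called. Of 9 hepatocyte markers 0 were called by limma and 0 had an unadjusted p under 0.05, and their summed linear signal ran from 139807 to 142688 in TG and from 137587 to 141417 in WT arrays. Markers of other liver cells were read against the 15.9% called over all genes. Of 10 Kupffer cell and macrophage markers Marco and C1qc rose, and 5 had an unadjusted p under 0.05. The other 8 were not called and differed by -0.10 to 0.30. The summed signal ran from 1339.6 to 1390.1 in TG and from 1169.5 to 1311.2 in WT arrays. Of 6 sinusoidal endothelial markers Clec4g and Kdr rose, and 3 had an unadjusted p under 0.05. The other 4 were not called and differed by -0.11 to 0.25. Their list summed to 652 to 689 in TG and to 516 to 575 in WT arrays. Of 6 leukocyte markers Ptprc rose, and 1 had an unadjusted p under 0.05. The other 5 were not called and differed by -0.14 to 0.24. Sums ran from 178 to 197 in TG and from 171 to 179 in WT arrays, which overlap. Of 5 cholangiocyte markers Epcam rose by 1.52, and 2 had an unadjusted p under 0.05. The other 4 were not called and differed by -0.03 to 0.36. Sums, which include Epcam, ran from 328 to 347 in TG and from 284 to 297 in WT arrays, so they do not show a rise of the list as a whole. Of 8 stellate cell and fibroblast markers 0 were called by limma and 2 had an unadjusted p under 0.05, with sums from 795 to 837 in TG and from 767 to 822 in WT arrays, which also overlap. The part of these other cells in the values of Nnt and its neighbours was not tested. More cells of a type and more RNA per cell cannot be told apart in such samples. The signal of the Gapdh control probe set at the 3' end minus that at the 5' end was 0.103 ± 0.009 in TG and 0.074 ± 0.058 in WT arrays, and for Actb it was 0.875 ± 0.044 in TG and 0.895 ± 0.032 in WT arrays (SD, n = 3 each).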

How the data were processed

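For the 6 arrays the authors deposited log2 values, 1 per probe set. The submitters' processing notes name RMA and Affymetrix Expression Console. RMA corrects background, equalises the distributions of the arrays and summarises probes, so values are relative to the other transcripts and differences at low signal are compressed. The software version and genome build are not given in the sources. Arrays have no read depth, and their number limits the precision.

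The table had 22690 probe sets, of which 64 were controls, 20380 had 1 gene symbol, 691 several and 1555 none. Gene IDs of 20351 matched the RefSeq gene table (GRCm38.p6), which gave names and gene order. The brightest probe set on average stood for a gene, and all 12393 genes were tested across genes with limma 3.58.1 (R 4.3.3; two-sided, Benjamini-Hochberg over all genes, threshold 0.05). The fit was tested on simulated data. Promoters and figures were handled with Python 3.11.15, pandas 2.3.3 and matplotlib 3.10.9.

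Genes named are every member, every measured gene from Isl1 to the distal end of chromosome 13, the 5 just proximal, Mtdh, the 5 closest to Nnt and, from each list, called genes and at most 4 with the smallest p. The members and lists were chosen with earlier results of these data known. Some called PARP genes beyond the smallest 4 (Tnks2, Parp3, Tiparp) and the called markers were named after their values were seen.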

Additional observations from a re-analysis of the deposited data

How the results depend on the processing

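The members, the genes near them, the counts of calls and the leading list genes were recomputed under 14 alternatives, but not Mtdh, the cell type markers, the runs, the chromosome shares or the genes closest to Nnt: averaging the probe sets of each gene, leaving out probe sets of several transcripts, a filter on dim genes, quantile normalization, a variance trend with a robust prior, array weights, a block for the replicate number, every probe set tested, and each of the 6 arrays left out. The same contrast chose the members, and every alternative reuses the same arrays. The members' calls below therefore describe the dependence on processing and are no test of the members. Nnt stayed called in all 14 alternatives, with a difference from 0.69 to 0.82, and Tmem267 in all 13 that could hold it, from -1.44 to -1.30. 4833420G17Rik was called in 14 of 14, from -0.90 to -0.68, and 3110070M22Rik in 13 of 13, from -0.60 to -0.46. Paip1 stayed lower in the 13 of 14 that read only its brightest probe set, and turned to 0.052 with the mean of its probe sets. Those 13 leave out its other probe set, so they give no direction for the gene. Isl1, Parp8, Emb, Mrps30 and Fgf10 were called under none of the alternatives run. Among genes near the members, Mocs2 was 0.011 in place of -0.21 without probe sets of several transcripts.

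With genes above the array median in at least 3 arrays kept, 3 members were called and 5 genes from Isl1 to the distal end, because the filter removes the dim genes 3110070M22Rik, Tmem267 and AF067061. In the mitochondrial NADPH list 5 genes were called with that filter and 5 with the variance trend, and the cause was not tested. Leaving out an array gave 1267 to 1700 calls over all genes (1967 with all arrays), the fewest without TG replicate 1, and 8 to 11 over the family lists (14 with all arrays), with 8 without TG replicate 1 and 9 without TG replicate 3. With the replicate block 5 members and 1505 genes were called. Deviations of same-numbered arrays from their group means correlated at -0.010, -0.010 and 0.10, so the numbers were not used as a pairing. Low signal limits 3110070M22Rik, Tmem267, Isl1, Parp8, Fgf10 and Emb, which lay under the array medians.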
